A study of Homo sapiens with 14 samples.

Results

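The YAP/TEAD target genes CTGF, CYR61, ANKRD1, AMOTL2 and AXL, the Hippo kinases LATS1 and LATS2, the coactivators YAP1 and WWTR1 and their DNA-binding partner TEAD1 were followed through RNA sequencing of 2 lung adenocarcinoma cell lines treated with AMG900. These 10 genes were taken by symbol from the 26732 genes listed for both lines. All 10 passed the filter on low counts in both lines and none was left out.

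In the Hippo pathway the kinases LATS1 and LATS2 phosphorylate the coactivators YAP1 and WWTR1 (the protein called TAZ) and keep them out of the nucleus. YAP1 and WWTR1 that reach the nucleus bind TEAD factors and switch on genes such as CTGF, CYR61 and ANKRD1, and also AMOTL2 and LATS2, whose proteins restrain YAP1 in a feedback loop. Cells that fail cytokinesis and become tetraploid are known to engage LATS2, and an aurora kinase inhibitor blocks the division step at which this happens.

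A549 and H1792, both established human lung adenocarcinoma lines, were given DMSO alone or 0.1 µM AMG900, which inhibits all aurora kinases, and collected after 48 h. There were 4 DMSO and 4 AMG900 libraries of A549 and 3 DMSO and 3 AMG900 libraries of H1792. A549 was grown in DMEM and H1792 in RPMI 1640, and the lines came in separate count tables with ranges of depth that did not overlap. Line, medium and depth therefore cannot be told apart. The labels name 3 dishes per treatment but list 4 libraries for A549, and the p-values measure the spread between these libraries.

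Total counts were 4254644 to 18962883 per library in A549 and 42810734 to 79984064 in H1792, so that counting error was smaller in H1792. A549 DMSO replicate 1 was the shallowest library. Levels are given as CPM, a gene's counts scaled to a common library size, after TMM scaling within each line, and changes as log2 fold changes with their standard error (SE). A gene is called higher or lower where its Benjamini-Hochberg adjusted p from the edgeR quasi-likelihood test, over all genes tested, was below 0.01. All adjusted p-values below come from edgeR unless another tool is named. In RNA from whole cultures, fewer cells that express a gene and less of its RNA per cell cannot be told apart. Only RNA was measured here, so the amount, phosphorylation and location of the YAP1, WWTR1 and LATS proteins are not known. Summed CPM of 5 epithelial markers was 4470 to 6880 in A549 and 659 to 830 in H1792, of which EPCAM made up 0.301 ± 0.228 CPM (SD, n = 4) in A549 DMSO libraries and CDH1 0.681 ± 0.0961 CPM (SD, n = 3) in H1792 DMSO libraries, both close to 0. The immune markers other than CD68 summed to at most 0.0945 CPM in any library.

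The sequence that TEAD factors recognise is present in promoters of some of the 10 genes. RefSeq promoters, placed on GRCh37, were found for 8 of them, and CYR61 and TEAD1 had no entry. The letters GGAATG, searched on both strands from 250 bases before to 50 bases after the start of transcription, stood in 6 of their 12 promoters, 1 each of CTGF, ANKRD1, AMOTL2, AXL, LATS2 and YAP1. AMOTL2 and AXL each had another promoter without it, and those of LATS1 and WWTR1 did not hold it. In the same window 14% of 35116 RefSeq promoters held GGAATG, 1.37% held it at least 2 times and 0.128% at least 3 times. CTGF and ANKRD1 are printed below because they held it more than once and responded differently in the lines. The CTGF sequence (chr6:132272513-132272762, minus strand) and the ANKRD1 sequence (chr10:92680845-92681094, minus strand) each end at the base before the start, and capitals mark GGAATG and, in ANKRD1 at position -195, a match to TGANTCA, the AP-1 motif, which 7.71% of the promoters held.
CTGF: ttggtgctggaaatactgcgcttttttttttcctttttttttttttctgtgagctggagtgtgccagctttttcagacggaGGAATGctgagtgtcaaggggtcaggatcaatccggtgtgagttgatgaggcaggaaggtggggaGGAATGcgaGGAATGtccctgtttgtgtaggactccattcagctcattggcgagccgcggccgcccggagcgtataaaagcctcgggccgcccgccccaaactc
ANKRD1: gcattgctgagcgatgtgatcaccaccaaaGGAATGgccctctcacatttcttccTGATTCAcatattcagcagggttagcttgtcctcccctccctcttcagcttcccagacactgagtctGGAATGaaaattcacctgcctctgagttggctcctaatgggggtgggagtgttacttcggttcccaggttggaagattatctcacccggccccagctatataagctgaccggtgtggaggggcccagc
In CTGF the motif began at positions -169, -104 and -95 from the start, and in ANKRD1 at -220 and -128. These are matches of letters, and binding was not measured.

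Of the 10 genes, 5 were called lower with AMG900 in A549 (CTGF, AXL, YAP1, WWTR1 and TEAD1) and 0 higher (0 also at an unadjusted p below 0.05 and by DESeq2). In H1792 6 were called lower (CTGF, CYR61, ANKRD1, LATS2, YAP1 and TEAD1) and AXL higher. Of all genes tested, 17.2% were called higher and 17.8% lower in A549, and 16.2% higher and 18.8% lower in H1792. The median log2 fold change of the 10 genes was -0.46 in A549 and -0.31 in H1792, where the median of all genes tested was -0.01 and 0.01. CTGF, YAP1 and TEAD1 were called lower in both lines, and AXL was called in opposite directions.

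**Figure D1:**
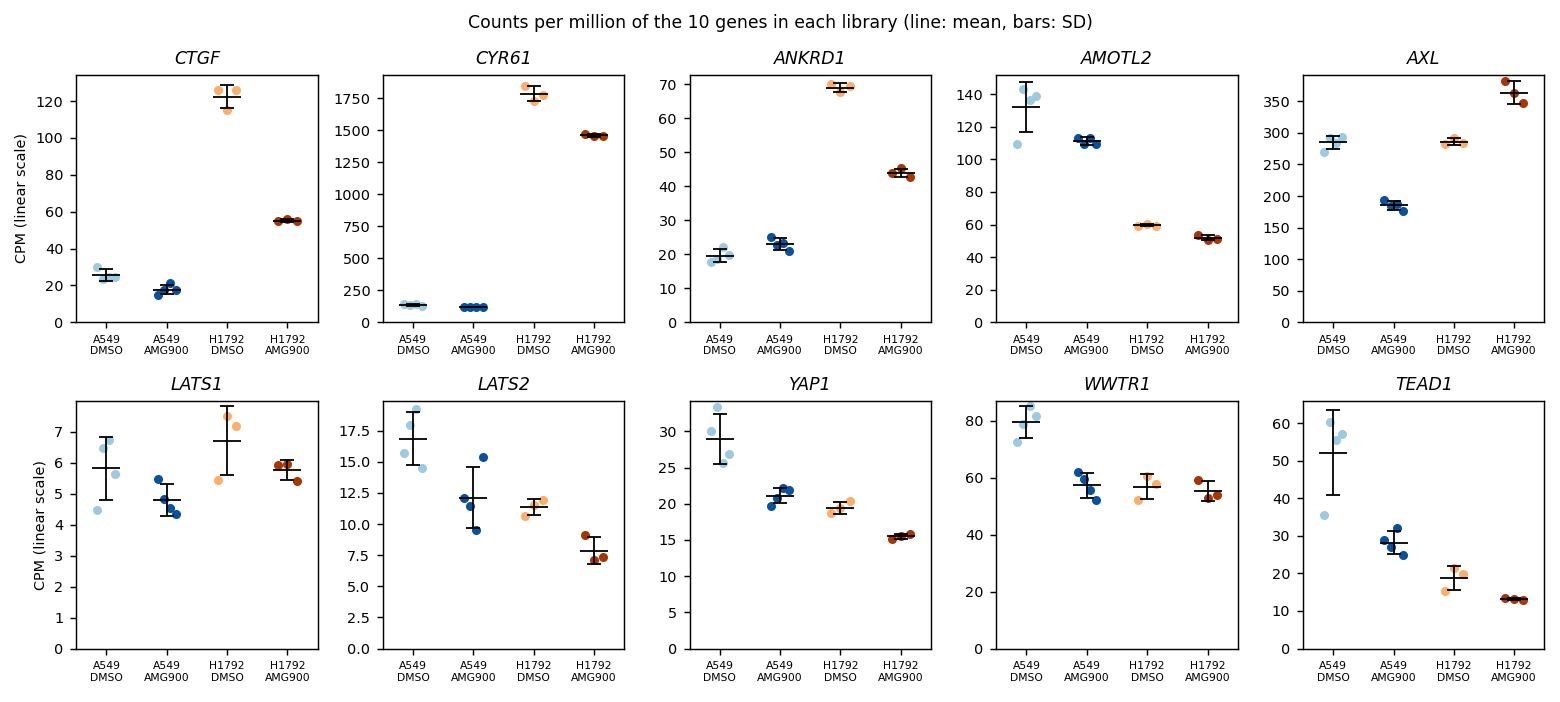
CPM (linear scale) of the 10 genes in each library, with 1 point per library, the group mean as a horizontal line and the SD as bars. AXL fell from 285 to 185 CPM in A549 and rose from 286 to 364 CPM in H1792, while CTGF fell in both.

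CTGF (also CCN2, chr6:132269316-132272512) encodes a secreted matricellular protein and is the target most used to read YAP1 activity. In A549 it stood at 30.1, 23.4, 24.5 and 24.6 CPM in DMSO and 15.02, 17.3, 21.4 and 17.3 CPM in AMG900. Every AMG900 library lay below every DMSO library, although A549 AMG900 replicate 3 and DMSO replicate 2 came close. The log2 fold change was -0.51 (SE 0.13, adjusted p = 0.00523). Leaving out DMSO replicate 3 or 4 or AMG900 replicate 1, 2 or 4 moved the adjusted p past 0.01, up to 0.0182, with log2 fold changes between -0.61 and -0.44 over all 8 omissions. In H1792 CTGF stood at 126, 115 and 126 CPM in DMSO and 54.8, 55.9 and 54.9 CPM in AMG900. The groups lay far apart, with a log2 fold change of -1.15 (SE 0.06, adjusted p = 7.53e-07), which is a fall of 54.9%.

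CYR61 (also CCN1, chr1:86046444-86050272), the matricellular relative of CTGF, moved little. In A549 it stood at 139, 132, 140 and 129 CPM in DMSO and 118, 120, 120 and 117 CPM in AMG900. The groups did not overlap, but the difference of -0.18 (SE 0.07, adjusted p = 0.0308) did not pass the threshold. After a correction for GC content it passed, at -0.23 (adjusted p = 0.0098). In H1792 CYR61 fell from 1850, 1731 and 1777 CPM to 1475, 1457 and 1456 CPM. That was a log2 fold change of -0.29 (SE 0.05, adjusted p = 0.000536) in the most abundant of the 10 genes.

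ANKRD1 (chr10:92671853-92680844), a nuclear ankyrin repeat protein first known from heart muscle, went separate ways. In A549 it stood at 17.6, 18.8, 22.1 and 19.8 CPM in DMSO and 25.0, 22.8, 23.2 and 20.9 CPM in AMG900. The groups overlapped and the difference of 0.22 (95% interval -0.03 to 0.46, adjusted p = 0.129) did not pass. After the GC correction ANKRD1 was called higher in A549, at 0.55 (adjusted p = 0.000702). In H1792 it fell from 70.0, 67.7 and 69.5 CPM to 43.8, 45.3 and 42.9 CPM, with no overlap. The log2 fold change was -0.65 (SE 0.06, adjusted p = 1.19e-05), and -0.41 (adjusted p = 0.000341) after the GC correction.

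AMOTL2 (chr3:134074189-134094321), an angiomotin that is both a YAP1 target and an inhibitor that holds YAP1 in the cytoplasm, was at the edge of the threshold in both lines. In A549 it stood at 110, 143, 137 and 139 CPM in DMSO and 113, 109, 113 and 109 CPM in AMG900. DMSO replicate 1 lay among the AMG900 libraries and the other DMSO libraries above them all. The log2 difference was -0.25 (SE 0.08, adjusted p = 0.0202), and -0.33 (adjusted p = 8.8e-05) without that replicate. That was the only call in the 8 fits that left a library out, where the adjusted p reached 0.0706. In H1792 AMOTL2 stood at 59.1, 60.4 and 59.1 CPM in DMSO and 53.7, 50.8 and 51.1 CPM in AMG900, with no overlap. The log2 difference there was -0.20 (SE 0.06, adjusted p = 0.0127), and DESeq2 gave an adjusted p of 0.00453. It was called in 1 of the 6 fits that left a library out, and the adjusted p reached 0.0687. After the GC correction AMOTL2 was called lower in both lines, at -0.50 (adjusted p = 5.85e-05) in A549 and -0.43 (adjusted p = 9.15e-05) in H1792.

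AXL (chr19:41725128-41767671), a receptor tyrosine kinase linked to invasion and drug resistance, was the member with opposite calls. In A549 it stood at 270, 292, 285 and 294 CPM in DMSO and 193, 184, 188 and 176 CPM in AMG900. The log2 fold change was -0.62 (SE 0.06, adjusted p = 2.08e-06), a fall of 35% with every AMG900 library below every DMSO library. In H1792 AXL stood at 283, 292 and 283 CPM in DMSO and 382, 363 and 347 CPM in AMG900. Here every AMG900 library lay above every DMSO library, with a log2 fold change of 0.35 (SE 0.05, adjusted p = 0.000357), a rise of 27.3%. Both calls held in each of the 8 and 6 fits that left a library out, and after the GC correction the values were -0.78 (adjusted p = 5.22e-08) and 0.18 (adjusted p = 0.00885).

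Of the kinases, LATS1 (chr6:149979289-150039241) was low and passed in neither line. It stood at 4.46, 6.46, 6.73 and 5.64 CPM in DMSO and 5.48, 4.84, 4.53 and 4.33 CPM in AMG900 in A549, and at 5.44, 7.51 and 7.18 CPM and 5.94, 5.95 and 5.39 CPM in H1792. The groups overlapped in both lines. The log2 difference was -0.31 (95% interval -0.73 to 0.10, adjusted p = 0.192) in A549 and -0.21 (95% interval -0.51 to 0.08, adjusted p = 0.206) in H1792. The GC correction turned the direction in both lines, to 0.14 (adjusted p = 0.567) and 0.21 (adjusted p = 0.134). In H1792 LATS1 was called lower, at -0.37 (adjusted p = 0.00871), without DMSO replicate 1.

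LATS2 (chr13:21547175-21635725), the kinase gene that YAP1 itself activates, was called lower in H1792. It fell there from 10.7, 11.6 and 11.9 CPM to 9.12, 7.13 and 7.35 CPM, with AMG900 replicate 1 the nearest to the DMSO libraries. The log2 fold change was -0.53 (SE 0.11, adjusted p = 0.00298). The adjusted p rose past 0.01, to at most 0.0178, without DMSO replicate 3 or AMG900 replicate 2 or 3. In A549 LATS2 stood at 15.7, 17.9, 19.3 and 14.5 CPM in DMSO and 12.1, 11.4, 9.49 and 15.4 CPM in AMG900. AMG900 replicate 4 lay inside the DMSO range and the other AMG900 libraries below it, and the log2 difference was -0.49 (SE 0.16, adjusted p = 0.0217). It was called lower without that replicate, at -0.62 (adjusted p = 0.00648), and without DMSO replicate 1, at -0.51 (adjusted p = 0.00706). These were the only calls in the 8 fits that left a library out, where the adjusted p reached 0.0803. LATS2 was also called lower in A549 after the GC correction, at -0.57 (adjusted p = 0.00901). With scaling by total counts it was called lower too, at -0.57 (adjusted p = 0.00926), but that scaling moved all genes in A549 by a median of -0.08.

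YAP1 (chr11:101981178-102104155), the coactivator that gives the pathway its readout, was called lower in both lines. In A549 it stood at 30.1, 33.3, 25.6 and 26.9 CPM in DMSO and 19.8, 20.9, 22.1 and 21.9 CPM in AMG900. In H1792 it stood at 18.7, 19.4 and 20.3 CPM in DMSO and 15.1, 15.6 and 15.8 CPM in AMG900. The groups did not overlap in either line, and the log2 fold change was -0.45 (SE 0.11, adjusted p = 0.00468) in A549 and -0.33 (SE 0.07, adjusted p = 0.00399) in H1792. After the GC correction neither call remained, with -0.18 (adjusted p = 0.192) and -0.15 (adjusted p = 0.0826). The call was also lost without A549 DMSO replicate 2 or AMG900 replicate 1, 2 or 3 (adjusted p up to 0.0227), and without H1792 DMSO replicate 3 or any 1 of the AMG900 libraries (up to 0.025).

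WWTR1 (chr3:149235022-149454501), the paralogue of YAP1 that shares its TEAD partners, fell in A549. It stood at 72.4, 78.8, 85.3 and 81.7 CPM in DMSO and 61.9, 59.5, 55.6 and 52.0 CPM in AMG900 there, with no overlap. The log2 fold change was -0.48 (SE 0.09, adjusted p = 0.000337), and -0.15 (adjusted p = 0.12) after the GC correction, which ended the call. In H1792 WWTR1 stood at 52.0, 60.7 and 57.6 CPM in DMSO and 59.2, 52.9 and 53.8 CPM in AMG900, fully overlapping, with a log2 difference of -0.04 (95% interval -0.20 to 0.13, adjusted p = 0.708). Its direction in H1792 turned under the GC correction, to 0.21 (adjusted p = 0.0115), and with transcript length corrected as well it was called higher, at 0.27 (adjusted p = 0.00208).

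Per kilobase of transcript, WWTR1 RNA was more abundant than YAP1 RNA in every library. WWTR1 made up 74.6% ± 3.2 of the sum of both in A549 DMSO libraries and 74.3% ± 2.35 with AMG900 (SD, n = 4), a difference that did not pass an exact permutation test (two-sided p = 0.857). In H1792 its share was 75.7% ± 1.17 with DMSO and 79.2% ± 1.34 with AMG900 (SD, n = 3), where the exact permutation p of 0.1 was the smallest that 3 against 3 allow. LATS2 made up 79.4% ± 2.13 and 76.6% ± 4.04 of the 2 LATS kinases in A549 (SD, n = 4, exact permutation p = 0.314). In H1792 the LATS2 share was 69.4% ± 2.63 with DMSO and 64.3% ± 2.84 with AMG900 (SD, n = 3, exact permutation p = 0.1, again the smallest possible).

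TEAD1 (chr11:12695968-12966284), a transcription factor that brings YAP1 and WWTR1 to DNA, had the largest change of the 10 genes in A549. It stood at 35.5, 60.5, 55.5 and 57.2 CPM in DMSO and 28.8, 27.1, 32.1 and 24.9 CPM in AMG900. DMSO replicate 1 was the lowest of its group and still above every AMG900 library. The log2 fold change was -0.90 (SE 0.14, adjusted p = 0.000119), and -0.62 (adjusted p = 0.00113) after the GC correction. In H1792 TEAD1 fell from 15.3, 21.4 and 19.97 CPM to 13.4, 13.1 and 13.0 CPM, with no overlap and a log2 fold change of -0.51 (SE 0.12, adjusted p = 0.00425). There the call was lost after the GC correction, at -0.30 (adjusted p = 0.0182), and in all but 1 of the 6 fits that left a library out, with an adjusted p of up to 0.0214; it held without DMSO replicate 1.

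The other TEAD genes, whose proteins share the same motif, moved in different directions. TEAD3 rose in A549 from 11.4 ± 1.87 to 24.6 ± 3.07 CPM (SD, n = 4, log2 fold change 1.07, adjusted p = 2.49e-05) and in H1792 from 39.3 ± 1.78 to 49.1 ± 2.81 CPM (SD, n = 3, log2 fold change 0.32, adjusted p = 0.00266 by edgeR). The TEAD3 call in H1792 was lost after the GC correction, at 0.02 (adjusted p = 0.861), with scaling by total counts (adjusted p = 0.0135) and without DMSO replicate 3 or AMG900 replicate 1 or 2 (adjusted p up to 0.0205). TEAD4 fell in A549 from 39.7 ± 3.51 to 24.5 ± 3.32 CPM (SD, n = 4, log2 fold change -0.71, adjusted p = 0.00019) and stood at 50.7 ± 1.09 and 52.0 ± 0.173 CPM in H1792 (SD, n = 3, adjusted p = 0.609 by edgeR), where the GC correction called it lower, at -0.27 (adjusted p = 0.00152). TEAD2 passed in neither line, with log2 differences of 0.30 (adjusted p = 0.0172) and -0.12 (adjusted p = 0.12).

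Per kilobase of transcript, TEAD1 was 8.67%, 11.5%, 11.6% and 11.2% of the 4 TEAD genes in the A549 DMSO libraries and 5.99%, 6.21%, 7.01% and 5.50% in the AMG900 libraries. All AMG900 shares lay below all DMSO shares, and the exact permutation test gave a two-sided p of 0.0286, the smallest that 4 against 4 allow. In H1792 the share was 2.16%, 2.90% and 2.72% with DMSO and 1.78%, 1.78% and 1.83% with AMG900, again without overlap (exact permutation p = 0.1, the smallest possible). Adjusted over the 6 share comparisons by Benjamini-Hochberg, the lowest value was 0.15, so that none of the exact permutation tests passed. Shares within a library do not depend on how libraries are scaled.

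**Figure D2:**
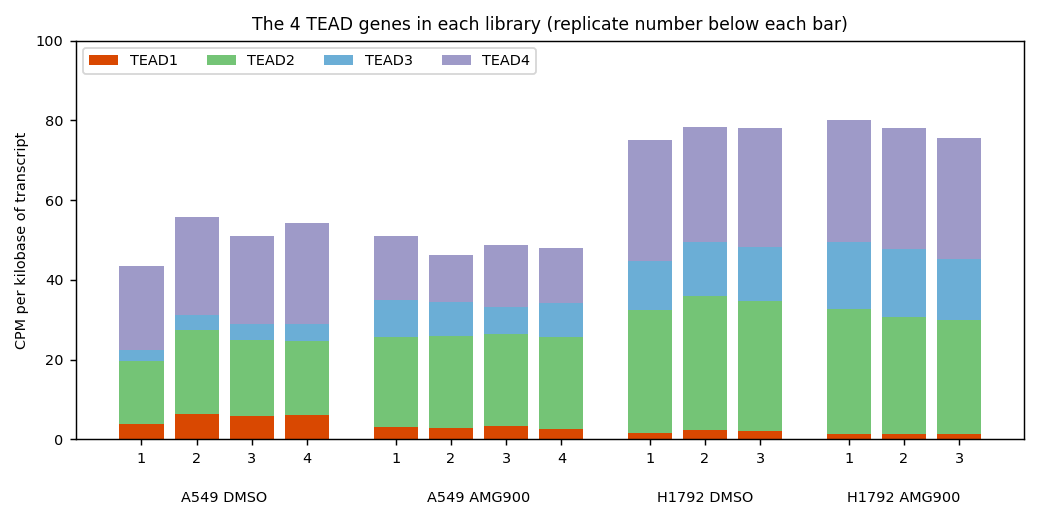
CPM per kilobase of transcript of TEAD1, TEAD2, TEAD3 and TEAD4, stacked, with 1 bar per library. The mean TEAD1 share of the sum was 10.7% with DMSO and 6.18% with AMG900 in A549, and 2.59% and 1.80% in H1792, and neither difference passed after adjustment over the 6 share comparisons.

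In both lines the change with AMG900 moved with the GC content of the transcript. Over genes, which are not independent replicates and share the same libraries, the Spearman rho of log2 fold change with GC content was 0.5 in A549 (12740 genes) and 0.483 in H1792 (14309 genes). Of the 10 genes, LATS1 (39%), ANKRD1 (42.1%), WWTR1 (42.2%), TEAD1 (43%) and YAP1 (43.5%) had a GC content below the medians of 49.2% and 49.5% of the genes tested. CYR61 (50.5%), CTGF (51.5%), LATS2 (51.8%), AXL (53.8%) and AMOTL2 (56.3%) were above them. The GC correction removes this trend, so it raises low-GC genes and lowers high-GC genes by construction. Accordingly, the 5 low-GC genes all had a higher value after the correction in both lines, and the 5 high-GC genes a lower one. CTGF, AXL and TEAD1 in A549 and CTGF, CYR61, ANKRD1, AXL and LATS2 in H1792 kept their direction and call with and without the correction.

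**Figure D3:**
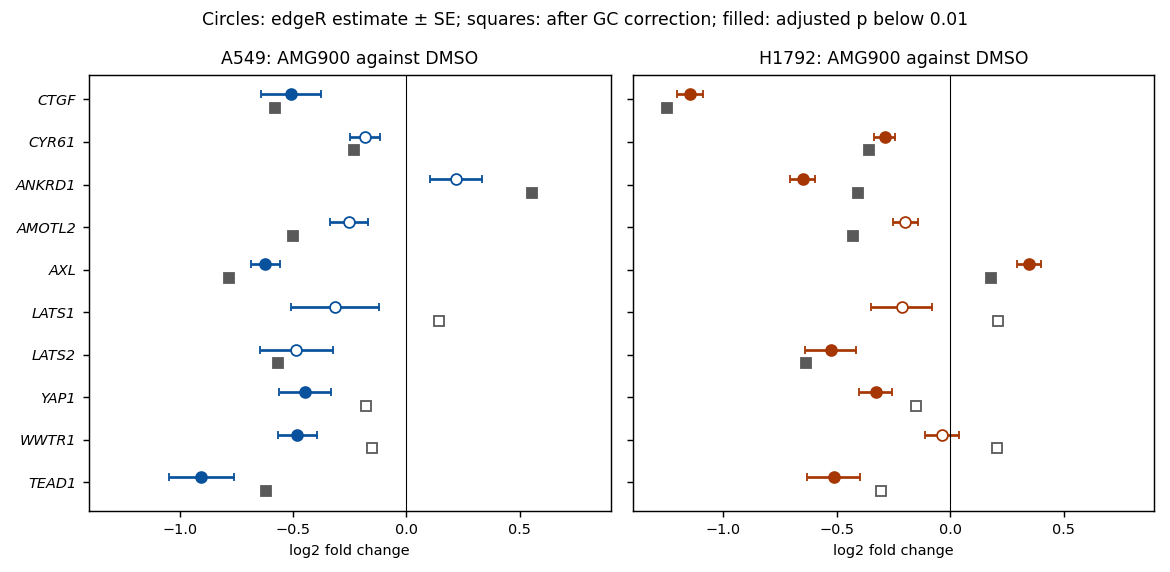
Log2 fold change with AMG900 of the 10 genes in A549 (left) and H1792 (right). Circles are the edgeR estimates with SE, squares the estimates after GC correction, and filled symbols have an adjusted p below 0.01; AXL lies at -0.62 in A549 and 0.35 in H1792.

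The response to AMG900 differed between the lines for 3 of the 10 genes. The test was the line by AMG900 interaction over all 14 libraries, the H1792 effect minus the A549 effect. CTGF (-0.73, SE 0.14, adjusted p = 0.000772) and ANKRD1 (-0.94, SE 0.12, adjusted p = 1.16e-05) were lower in H1792 by this measure, and AXL (0.90, SE 0.08, adjusted p = 1.37e-07) was higher. Of all genes tested, 5.37% were called higher and 9.17% lower. The joint scaling put the median of all genes at -0.10, and relative to it the differences of CTGF and ANKRD1 are smaller and that of AXL is larger. Of the genes called, 36.9% were higher with this scaling and 49.5% with the size factors of DESeq2. These 3 calls held with every library left out in turn, the CTGF value lying between -0.80 and -0.62.

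WWTR1 was near the threshold, at 0.37 (95% interval 0.13 to 0.62, adjusted p = 0.0254). It passed with the size factors of DESeq2, at 0.45 (adjusted p = 0.00685), after the GC correction, at 0.39 (adjusted p = 0.00659), and without A549 DMSO replicate 1, at 0.42 (adjusted p = 0.00513). The interaction was not called for CYR61 (-0.18, 95% interval -0.34 to -0.02), AMOTL2 (-0.02, 95% interval -0.25 to 0.21), LATS1 (0.04, 95% interval -0.44 to 0.51), LATS2 (-0.12, 95% interval -0.57 to 0.34), YAP1 (0.04, 95% interval -0.25 to 0.33) or TEAD1 (0.32, 95% interval -0.11 to 0.75). For AMOTL2 the sign turned with other scalings, and for LATS1, LATS2 and TEAD1 the intervals leave room for sizeable differences between the lines.

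Without the drug the lines already differed in 8 of the 10 genes. H1792 was higher than A549 in CYR61 (log2 difference 3.83, SE 0.06, adjusted p = 1.53e-20), CTGF (2.38, SE 0.10, adjusted p = 4.63e-14) and ANKRD1 (1.90, SE 0.09, adjusted p = 1.97e-13), the secreted and nuclear targets. It was lower in TEAD1 (-1.395, SE 0.15, adjusted p = 6.59e-08), AMOTL2 (-1.06, SE 0.08, adjusted p = 4.42e-10), LATS2 (-0.48, SE 0.15, adjusted p = 0.00926), YAP1 (-0.47, SE 0.10, adjusted p = 0.000316) and WWTR1 (-0.40, SE 0.08, adjusted p = 0.000284). Of all genes tested, 34.2% were called higher and 31.9% lower in H1792. After correction for GC content and length the coactivators were not called, with -0.20 for YAP1 (adjusted p = 0.0751) and -0.15 for WWTR1 (adjusted p = 0.0475), nor was LATS2, at -0.26 (adjusted p = 0.117). The other TEAD genes were higher in H1792, by 0.88 for TEAD2 (adjusted p = 7.12e-09), 1.84 for TEAD3 (adjusted p = 3.85e-11) and 0.44 for TEAD4 (adjusted p = 0.00034) on the log2 scale.

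The baseline of LATS2 was at the edge of the threshold. Its call was lost in 10 of the 14 fits that left a library out and held without A549 DMSO replicate 1 or 4 or A549 AMG900 replicate 3 or 4. That of WWTR1 was lost without H1792 DMSO replicate 1 (-0.28, adjusted p = 0.0108). AXL (0.10, 95% interval -0.02 to 0.23, adjusted p = 0.118) and LATS1 (0.26, 95% interval -0.08 to 0.60, adjusted p = 0.152) were not called, and AXL stood at 285 ± 10.8 CPM (SD, n = 4) in A549 and 286 ± 5.13 CPM (SD, n = 3) in H1792. AXL was called higher in H1792 after correction for GC content and length (0.24, adjusted p = 0.000463) and among genes with at least 10 counts in every library (0.17, adjusted p = 0.00969). After the drug CTGF in H1792, at 55.2 ± 0.635 CPM (SD, n = 3), still stood above CTGF in A549 DMSO libraries, at 25.6 ± 3.01 CPM (SD, n = 4), on levels scaled separately in each line.

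Markers of other cell types also differed between the lines. The fibroblast markers DCN, LUM and PDGFRB summed to 43.1 to 47.6 CPM in H1792 DMSO libraries and 0.299 to 0.47 CPM in A549 DMSO libraries. Their part in the baseline differences was not tested. With AMG900 the fibroblast sum was 35.8 to 37.6 CPM in H1792 and 0.755 to 0.85 CPM in A549. In H1792 its members went different ways. DCN went from 29.8 ± 2.29 to 21.8 ± 1.03 CPM and LUM from 4.21 ± 1.04 to 1.82 ± 0.198 CPM (SD, n = 3). PDGFRB went from 10.8 ± 1.91 to 13.2 ± 0.444 CPM (SD, n = 3), with overlapping groups. The epithelial sum rose from 4470 to 5650 CPM to 6110 to 6880 CPM in A549, while its ranges in H1792 were 659 to 819 and 818 to 830 CPM. The endothelial markers PECAM1 and CDH5 summed to at most 0.539 CPM in A549, and to 3.64 to 5.52 CPM with DMSO and 7.54 to 8.59 CPM with AMG900 in H1792. The immune sum, nearly all CD68, which is also a lysosomal gene of many cells, was 58.3 to 83.2 CPM and 149 to 170 CPM in A549 and 97.3 to 113 CPM and 166 to 192 CPM in H1792. The part of these markers in the AMG900 changes was not tested.

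**Figure D4:**
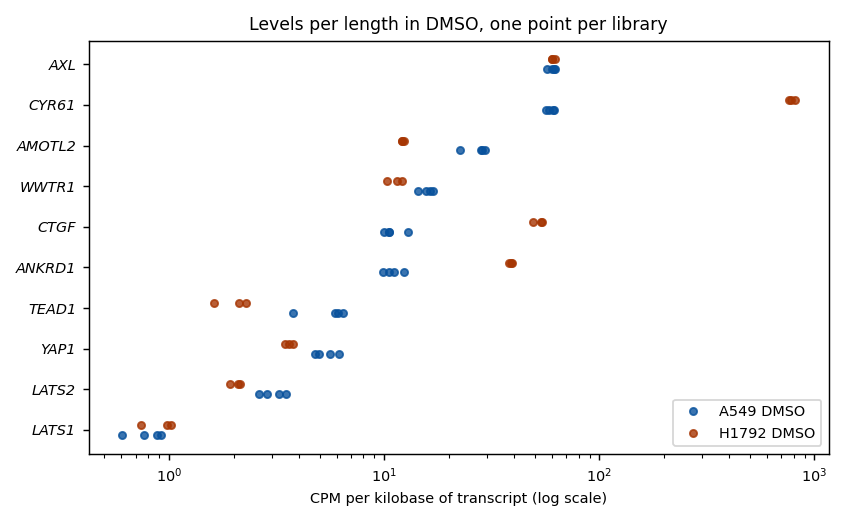
CPM per kilobase of transcript (log axis) of the 10 genes in the DMSO libraries, with 1 point per library. CYR61, CTGF and ANKRD1 lie to the right in H1792 and TEAD1, AMOTL2, LATS2, YAP1 and WWTR1 to the left, while AXL and LATS1 lie close together.

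The order of the 10 genes by level per kilobase changed between the lines. In A549 DMSO libraries AXL (60.4 ± 2.28 CPM per kilobase) and CYR61 (59.2 ± 2.32) came first and did not differ beyond their spread (SD, n = 4). They were followed by AMOTL2 (27.1 ± 3.11), WWTR1 (15.8 ± 1.09), CTGF (11.0 ± 1.29) and ANKRD1 (10.9 ± 1.07), the last of these neighbours again within their spread. TEAD1 (5.54 ± 1.20) and YAP1 (5.37 ± 0.638) overlapped too, and LATS2 (3.04 ± 0.385) and LATS1 (0.791 ± 0.138) were lowest. In H1792 DMSO libraries CYR61 led with 784 ± 26.4 CPM per kilobase, before AXL (60.6 ± 1.09), CTGF (52.3 ± 2.71) and ANKRD1 (38.6 ± 0.689) (SD, n = 3). AMOTL2 (12.2 ± 0.147) and WWTR1 (11.3 ± 0.876) came next, a little apart, then YAP1 (3.60 ± 0.152), LATS2 (2.05 ± 0.113), TEAD1 (2.005 ± 0.342) and LATS1 (0.912 ± 0.151), of which LATS2 and TEAD1 were within their spread.

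Beyond these genes, 16 other targets of a published YAP/TAZ signature moved both ways. In each line 3 were called higher and 5 lower, with a median log2 fold change of -0.27 in A549 and -0.17 in H1792. The shares over all genes were 17.2% higher and 17.8% lower in A549 and 16.2% and 18.8% in H1792. CRIM1, a transmembrane protein that tethers growth factors, fell in both lines, from 156 ± 8.69 to 90.4 ± 4.35 CPM in A549 (SD, n = 4, log2 fold change -0.79, adjusted p = 6.03e-07 by edgeR) and from 76.4 ± 6.45 to 28.0 ± 1.05 CPM in H1792 (SD, n = 3, log2 fold change -1.45, adjusted p = 8.44e-07 by edgeR). IGFBP3, a secreted binding protein of insulin-like growth factors, rose in both, by 0.71 (adjusted p = 6.71e-06) and 1.01 (adjusted p = 8.59e-06) on the log2 scale. The stress-response gene GADD45A (1.30, adjusted p = 5.22e-06) and the kinase gene NUAK2 (0.71, adjusted p = 9.82e-06) rose in A549, where the forkhead factor gene FOXF2 (-0.64, adjusted p = 0.000249) and the secreted protein gene FJX1 (-0.40, adjusted p = 0.00559) fell. These genes were not called in H1792, where GADD45A was at 0.24 (adjusted p = 0.0147) and FOXF2 at -0.48 (adjusted p = 0.0198). After the GC correction FOXF2 (-0.82, adjusted p = 0.000856), FJX1 (-0.45, adjusted p = 3.76e-05) and NUAK2 (-0.44, adjusted p = 0.00148) were called lower in H1792. In H1792 TGFB2, a ligand of the TGF-beta receptors (-0.79, adjusted p = 1e-04), and F3, tissue factor (-0.48, adjusted p = 0.000557), fell, and DOCK5 (0.45, adjusted p = 0.00185) and PTPN14, a phosphatase that binds YAP1 (0.39, adjusted p = 0.000964), rose. The DOCK5 call was lost without any 1 of the H1792 AMG900 libraries (adjusted p up to 0.0111), and the FJX1 call without A549 DMSO replicate 3 or AMG900 replicate 1 or 3 (adjusted p up to 0.0204) and with at least 10 counts in every library (adjusted p = 0.01). Without A549 DMSO replicate 1 the count called lower in A549 was 9, and without A549 AMG900 replicate 3 it was 3. In H1792 it was 3 without AMG900 replicate 1 or 2.

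The upstream part of the pathway comprises the core kinases, their scaffolds and adaptors. Of 31 other core components and adaptors 30 were tested in each line. In A549 10 were called lower and 0 higher by edgeR (median log2 fold change -0.16), with 5 higher at an unadjusted p below 0.05 and 1 called higher by DESeq2, and in H1792 9 lower and 3 higher (median -0.06). Over all genes tested the shares called lower were 17.8% in A549 and 18.8% in H1792, and those called higher 17.2% and 16.2%. MAP4K5, a kinase that activates LATS, fell by 1.38 on the log2 scale in A549 (SE 0.22, adjusted p = 0.000148) and by 1.33 in H1792 (SE 0.14, adjusted p = 4.38e-05). STK3, the MST2 kinase upstream of LATS, fell by 1.23 (adjusted p = 0.000264) and 1.02 (adjusted p = 8.78e-05). The upstream adaptors WWC2 (-1.04, adjusted p = 8.97e-05 and -0.87, adjusted p = 3.63e-05) and FRMD6 (-1.004, adjusted p = 0.000138 and -0.91, adjusted p = 0.000536) fell in A549 and H1792. STRN3, a subunit of the STRIPAK phosphatase complex that opposes the MST kinases, was lower in both (-0.93, adjusted p = 0.00236 and -1.07, adjusted p = 0.000156). STRN (-1.13, adjusted p = 0.000669) and FGFR1OP2 (-1.12, adjusted p = 0.00111), also subunits of that complex, were called lower in A549. In H1792 STRN was at -0.58 (adjusted p = 0.0128, 0.00268 to 0.736 over the alternatives) and FGFR1OP2 at -0.35 (adjusted p = 0.0237), and neither was called. The upstream activator gene MAP4K3 (-0.96, adjusted p = 0.00179) was called lower in H1792, and in A549 it was at -0.48 (adjusted p = 0.0415) and not called.

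Genes that fell included both activators of LATS and subunits of the complex that opposes it. After the GC correction the counts were 9 lower and 3 higher in A549 and 9 lower and 4 higher in H1792. STRN3, STRN and FGFR1OP2 lost their call in A549 and MAP4K3 in H1792, which also lost it without AMG900 replicate 1 (adjusted p = 0.0118). The count called higher in H1792, 3, ranged from 1 to 5 with libraries left out, being 1 without DMSO replicate 3 or AMG900 replicate 1 or 2 and 5 without DMSO replicate 1. Of the 7 other TEAD and VGLL genes, 5 were tested in A549, where TEAD3 was called higher and TEAD4 lower, and 4 in H1792, where TEAD3 was called higher. After the GC correction 2 were called lower and 0 higher in H1792, and with DESeq2 or at least 10 counts in every library 2 were called higher in A549. VGLL1 and VGLL2, cofactors that compete with YAP1 for TEAD, were at or near 0 in both lines. VGLL4, which represses TEAD targets, stood at 21.4 and 25.2 CPM with DMSO and AMG900 in A549 and at 13.9 and 16.5 CPM in H1792, with adjusted p-values of 0.0829 and 0.0219 by edgeR.

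**Figure D5:**
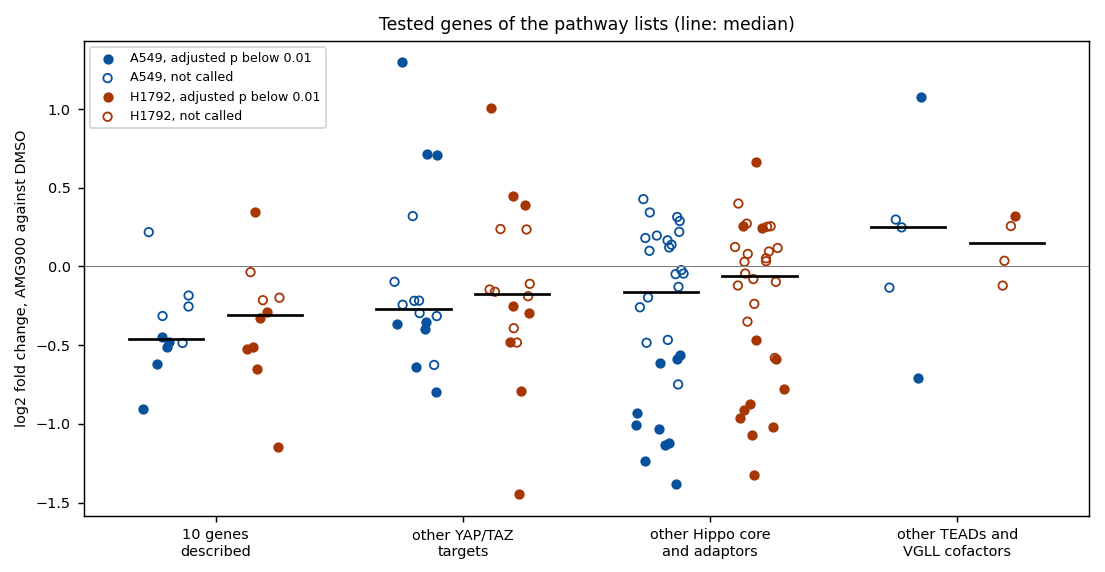
Log2 fold change with AMG900 of each tested gene of the 10 genes and of the other pathway lists, in A549 (blue) and H1792 (orange), with the median as a line and filled points for an adjusted p below 0.01. The 10 genes have medians of -0.46 and -0.31, and the other Hippo core genes hold points below -1 in both lines.

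The genes whose pattern was most like that of CTGF over the 14 libraries, with the mean of each line removed, were YWHAG (Pearson r = 0.982), TMX3 (0.962) and GALNT7 (0.961) of 12615 genes. YWHAG, which encodes a 14-3-3 protein, fell by 0.50 (adjusted p = 0.000163) in A549 and by 0.95 (adjusted p = 1.89e-06) in H1792 on the log2 scale. It was picked for its likeness to CTGF in these same libraries, so these p-values are not separate evidence. The genes most like CYR61 were GCC1 (0.963), FAM171A1 (0.962) and PDIA6 (0.952). These correlations are descriptions over libraries that share the same treatment groups and the same scaling. Among the 10 genes in the 6 H1792 libraries, CTGF ran with ANKRD1 (r = 0.998) and against AXL (r = -0.977), which restates the difference between the treatment groups. In the 8 A549 libraries the same pairs had r = -0.806 and 0.75.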

How the data were processed

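RNA of A549 and H1792 cells was sequenced 48 h after DMSO or 0.1 µM AMG900, and the authors deposited 1 table of read counts per gene symbol for each line, without normalization. The submitters' processing notes name STAR, HTSeq and hg19 (GRCh37); versions, annotation, counting options and use of strand are not given in the sources used here, so reads of genes that overlap on opposite strands may not be separated. For H1792, 28 entries named as dates were not used. Of the 26786 names found in either table, 21902 received a GC content and transcript length from GENCODE gene models on GRCh37.

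The main tool was edgeR 4.0.16 (with limma 3.58.1, in R 4.3.3), and DESeq2 1.42.0 was an alternative. After filterByExpr and TMM scaling each line was tested on its own with quasi-likelihood fits, and p-values were adjusted by Benjamini-Hochberg with a threshold of 0.01. A joint fit of the 14 libraries, with its own TMM scaling, gave the interaction and the comparison of DMSO libraries. The SE was taken from the test statistic, and 95% intervals from the t distribution with the degrees of freedom of the test. Shares were compared by exact permutation tests, two-sided. The biological coefficient of variation was 12.8% in A549 and 9.60% in H1792. Replicates of a group differed by more than sampling noise. The GC correction fitted a natural spline with 5 degrees of freedom to each library. The other alternatives were an FDR of 0.05, DESeq2, its size factors, total-count scaling, a minimum of 10 counts per library or no filter, a replicate block, and the omission of each library. The fits were also run on simulated data with a constant dispersion, few changed genes and no GC trend. That run checks the code and does not bear on the calls made here.

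The 10 genes, the lists and the markers were chosen with earlier results of these data known. Of the other lists, the 6 genes with the largest change among those called in each line are named, and for CTGF and CYR61 the 3 genes with the highest Pearson r. Promoters are those of RefSeq.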

Additional observations from a re-analysis of the deposited data

Results flagged for a closer look

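The effect of AMG900 differed between H1792 and A549 for CTGF, ANKRD1 and AXL by the interaction test of edgeR over 14 libraries. For CTGF the difference, the H1792 effect minus the A549 effect, was -0.73 on the log2 scale (adjusted p = 0.000772, 4.11e-05 to 0.00633 over the alternatives), with every AMG900 library below every DMSO library in both lines. For ANKRD1 it was -0.94 (adjusted p = 1.16e-05, 4e-13 to 0.000435 over the alternatives), with a fall in H1792 and overlapping groups in A549. For AXL it was 0.90 (adjusted p = 1.37e-07, 8.24e-44 to 3.19e-05 over the alternatives), with a fall in A549 and a rise in H1792, neither with overlap.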

How the results depend on the processing

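The falls of AXL and TEAD1 in A549, the falls of CTGF, CYR61 and ANKRD1 and the rise of AXL in H1792, the interactions of CTGF, ANKRD1 and AXL, and the DMSO differences of CYR61, CTGF, ANKRD1, AMOTL2 and TEAD1 kept their direction and call under every alternative run. Of the 10 genes, 5 were called lower in A549, and 3 to 7 with libraries left out. Under scaling by total counts or an FDR of 0.05 the count was 8, with CYR61, AMOTL2 and LATS2 added. Scaling by total counts moved the changes of all genes in A549 by a median of -0.08. Of all calls there, 39.6% were then higher, against 49.2% in the main fit. Over all genes 2340 were called lower in A549, and 1846 to 2978 with libraries left out. The count of the 10 genes called higher in A549, 0, was 1 after correction for GC content, with or without length. In H1792 6 were called lower, 3 to 8 with libraries left out, and 1 higher, 2 after correction for GC content and length. Higher by the interaction were 1, and 2 with DESeq2, its size factors, an FDR of 0.05 or either GC correction, and 1 to 2 with libraries left out. Lower in H1792 than in A549 with DMSO were 5, and 2 after correction for GC content and length, and 3 to 5 with libraries left out.

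Over all genes, the interaction called 793 higher, and 1416 with DESeq2, 1369 and 1417 after correction for GC content without and with length, and 1319 at an FDR of 0.05, which called 2297 lower against 1355. Of the calls, 36.9% were higher, and 49.4% with DESeq2, 48.6% with total counts and 55.3% with either GC correction. In H1792 2439 genes were called higher, 3689 at an FDR of 0.05 and 1382 to 3047 with libraries left out, and 2827 lower, 1853 to 3656 with libraries left out. Scaling by total counts moved the median DMSO difference of all genes by -0.11.

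Directions turned as follows. For AMOTL2 the interaction was 0.0657 with DESeq2, 0.0706 with total counts, 0.0590 with the size factors of DESeq2, 0.13 and 0.12 after the GC corrections without and with length, and -0.0504 to 0.0586 with libraries left out, positive without A549 DMSO replicate 1. For LATS1 the changes were 0.14 and 0.18 in A549 and 0.21 and 0.26 in H1792 after these corrections. For WWTR1 in H1792 they were 0.21 and 0.27, and -0.12 to 0.0061 with libraries left out. TEAD4 in H1792 was -0.0282 with total counts, and -0.27 and -0.34 after the GC corrections, where it was called lower. FGFR1OP2 in H1792 was 0.32 and 0.29 after them, TGFB2 in A549 0.12 and 0.17, PTPN14 in A549 0.0117 without length, and MAP4K3 in A549 0.00998 with length. The DMSO difference of AXL was -0.0025 with total counts. The LATS1 interaction ranged from -0.11 to 0.12, that of YAP1 from -0.0333 to 0.0953 and that of LATS2 from -0.24 to 0.0343 with libraries left out. None of the turned values was called except those of TEAD4 after both corrections and of WWTR1 after the second. The causes were not tested.

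No pairing by replicate number was seen. Same-numbered DMSO and AMG900 libraries had correlations of their deviations from -0.0615 to 0.0417, and those with different numbers from -0.116 to 0.109. These correlations cannot show whether dishes were handled in pairs. With a replicate block 3 of the 10 genes were called lower in A549 (AXL, WWTR1 and TEAD1). CTGF and YAP1 lost their call there, at adjusted p = 0.0136 and 0.0149 by edgeR. FJX1 in A549 (adjusted p = 0.0206) and YAP1 in H1792 (adjusted p = 0.0102) lost theirs too. Depth limits LATS1 most, with 19 to 95 counts per library in A549.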

Other observations

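Of the 16 other targets of the published YAP/TAZ signature, the interaction test of edgeR called 4 lower and 1 higher in H1792 relative to A549, and 11 were not called. Over all genes tested 9.17% were called lower and 5.37% higher. GADD45A (-1.15, adjusted p = 6.11e-05) and NUAK2 (-0.98, adjusted p = 1.06e-05) rose in A549, whereas in H1792 GADD45A stood at 133 ± 10.8 CPM with DMSO and 157 ± 8.29 CPM with AMG900, and NUAK2 at 14.9 ± 0.884 and 13.1 ± 0.739 CPM (SD, n = 3). CRIM1 (-0.73, adjusted p = 3.76e-05) fell further in H1792 than in A549. TGFB2 (-0.65, adjusted p = 0.00271) and DOCK5 (0.59, adjusted p = 0.0064) were the others. In the TEAD family the interaction was -0.81 for TEAD3 (adjusted p = 0.00101), 0.67 for TEAD4 (adjusted p = 0.00109) and -0.49 for TEAD2 (adjusted p = 0.0034), all by edgeR. TEAD3 rose more in A549 than in H1792, and TEAD4 fell in A549.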
